A study of Homo sapiens with 4 samples.

Results

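GATA2 occupancy was examined at 10 genes that control the passage of cells through G1, the phase that follows mitosis. They are the D-type cyclins CCND1, CCND2 and CCND3, the cyclin E gene CCNE1, the kinase genes CDK4 and CDK6, the inhibitor genes CDKN1A, CDKN1B and CDKN2C, and the transcription factor gene E2F2. Every GATA2 peak that shared at least 1 base with one of these genes or with the 50 kb on either side of it (hg38 coordinates, GENCODE release 44) was counted, which gave 34 of the 31777 asynchronous peaks and 3 of the 1648 mitotic peaks. A peak is an interval where sequenced DNA fragments pulled down with the GATA2 antibody pile up. The windows of the 10 genes did not overlap, so no peak was counted for more than 1 gene.

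The cells were K562, an established chronic myeloid leukaemia line. The asynchronous group was a growing culture fixed without arrest or sorting, and the mitotic group was arrested with nocodazole, which blocks spindle assembly, then fixed and sorted for the mitotic phosphoprotein mark MPM-2 to under 10% asynchronous cells. Both were fixed with disuccinimidyl glutarate and formaldehyde and precipitated with the same GATA2 antibody. Each condition has 1 GATA2 library, with the mitotic cells of several sorts combined, so no value below has a replicate check and no test between the conditions was made. The peak lists hold a start and an end, without height or read count, so the depth is unknown and a site without a peak cannot be told from one under the limit of detection.

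In G1, the D-type cyclins bind CDK4 and CDK6 and the kinases phosphorylate the retinoblastoma protein, which frees E2F factors to switch on genes for DNA replication. Cyclin E then acts with CDK2. The products of CDKN1A (p21) and CDKN1B (p27) inhibit several cyclin-CDK pairs, and that of CDKN2C (p18) binds CDK4 and CDK6. Haematopoietic cells rely mainly on CDK6, and cyclin D3 and E2F2 are known for their part in the divisions of maturing red cell precursors. A factor that stays on a site through mitosis is said to bookmark it, and an asynchronous peak is called bookmarked here where a mitotic peak overlaps it by 1 base or more.

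All 3 mitotic peaks lay inside asynchronous peaks, 2 of them at CCND3 and 1 at E2F2. Of the whole mitotic list, 1606 of 1648 peaks (97.45%) overlapped an asynchronous peak. The reference sequence of the 3 peaks is shown first because it is what GATA2 was found on in both conditions. All sequences are of the plus strand of hg38. Capitals mark each match to GATA preceded by A or T and followed by A or G on either strand (a GATA match below). In the first sequence they also mark the E-box CAGCTG, which factors such as TAL1 bind, the RUNX core AACCACA and the AP-1 site TGAGTCA. The sequences of CCND3 intron 1 and of E2F2 are the central 300 bases of their mitotic peaks, and that of the CCND3 last intron is limited to 30 bases because the peak touches an annotated untranslated region.
CCND3 intron 1 of the longest coding transcript, chr6:42017166-42017465: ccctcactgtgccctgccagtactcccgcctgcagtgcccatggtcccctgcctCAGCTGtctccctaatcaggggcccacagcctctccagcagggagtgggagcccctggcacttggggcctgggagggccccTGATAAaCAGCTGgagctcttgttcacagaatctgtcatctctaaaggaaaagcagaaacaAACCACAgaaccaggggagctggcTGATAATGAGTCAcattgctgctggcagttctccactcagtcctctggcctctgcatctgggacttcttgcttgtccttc
CCND3 last intron, chr6:41936405-41936434: gaccaaggcaggAGATAAaaagccacaaag
E2F2 upstream, chr1:23539934-23540233: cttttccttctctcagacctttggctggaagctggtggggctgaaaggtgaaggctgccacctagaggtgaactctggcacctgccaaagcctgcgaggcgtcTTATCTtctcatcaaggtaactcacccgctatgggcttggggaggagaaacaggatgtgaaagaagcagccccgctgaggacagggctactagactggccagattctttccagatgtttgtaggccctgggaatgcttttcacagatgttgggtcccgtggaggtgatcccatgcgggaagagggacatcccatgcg

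The CCND3 intron 1 site held all 4 of these kinds of match. Its first GATA match, from 42017301 to 42017306, was followed after 1 base by an E-box, and another E-box ended 75 bases before it. Its second GATA match, from 42017386 to 42017391, was followed directly by the AP-1 site with 0 bases between them, and the RUNX core ended 17 bases before it. The last-intron site of CCND3 and the upstream site of E2F2 held a single GATA match each, on the plus strand from 41936417 to 41936422 and on the minus strand from 23540037 to 23540042. Neither held an E-box, RUNX, AP-1 or ETS match. The 3 bookmarked asynchronous peaks held 4 GATA matches in 1546 bp, and all 4 fell in the 824 bp that the mitotic peaks shared with them. That is 2.59 matches per kb of peak, beside 5.01 in all bookmarked peaks of the list. The 31 asynchronous-only peaks at these genes held 7.71 per kb, and all asynchronous-only peaks of the list 6.09. Of the 87 matches in the 34 peaks, 23 were in 2 of these asynchronous-only peaks and raise their density. Counted per peak, the list ran the other way, with a mean of 3.561 matches in bookmarked and 2.452 in asynchronous-only peaks. At least 2 matches were found in 87.25% and 65.25% of them. At these genes the means were 1.333 and 2.677. The mitotic peaks themselves held 4.854 matches per kb at these genes and 7.497 across the list. The paper, with its own motif scan, reports more GATA2 motifs in mitotic than in asynchronous peaks. As few matches as at the CCND3 intron 1 site were found in 34.2% of all bookmarked peaks, and as few as at the other sites in 12.75%. The 6 flanking sequences, as wide as the mitotic peaks and 5 kb away from them, held 0 GATA matches. Of the same flanks of all mitotic peaks, 44.9% held a match. Among the 6 wider flanks of the bookmarked asynchronous peaks, 1 held a match.

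Each of the 10 genes had at least 2 asynchronous peaks. At least 1 peak was found in the equally extended windows of 76.0% of the 20033 protein-coding genes and at least 2 in 57.9%. CCND3 had 10, CDK6 had 5, CDKN1A, CDKN1B and CDKN2C had 3 each, and CCND1, CCND2, CCNE1, CDK4 and E2F2 had 2 each. The median was 2.5 peaks for the 10 genes and 2 for all protein-coding genes. CCND3 stood apart from the rest, since only 3.59% of protein-coding genes had as many or more. Its window is long at 215.4 kb, but per length it was also the densest of the 10, with 4.64 peaks per 100 kb, a density reached by 8.12% of protein-coding genes. CDK6, the longest with 331.7 kb, had 1.51 per 100 kb. The densities of the 10 genes ran from 1.48 at CCND2 upwards, above the median of 1.41 per 100 kb of all windows. That median includes the 23.97% of genes with 0 peaks, and the 10 genes were chosen with earlier results of these data known. The comparison is therefore a description and not a test. Windows of neighbouring genes share peaks, so the genes of this background are not independent of each other.

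**Figure D1:**
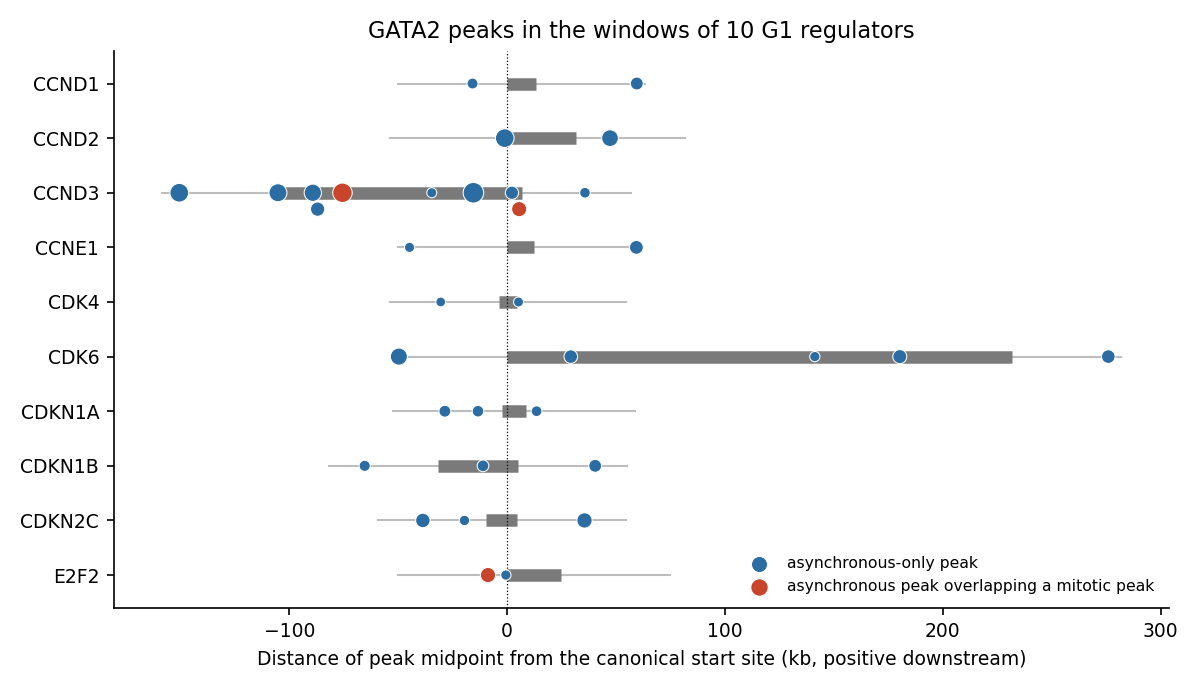
The midpoint of each asynchronous peak is plotted by its distance in kb from the canonical start site of the gene (dotted line; positive is downstream), with the gene body as a thick bar, the 50 kb extensions as thin lines and the area of each point in proportion to peak width. Peaks very close to the one before are set lower. The 3 bookmarked peaks (red) are at CCND3 and E2F2, and the other 31 (blue) share no base with a mitotic peak.

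**Figure D2:**
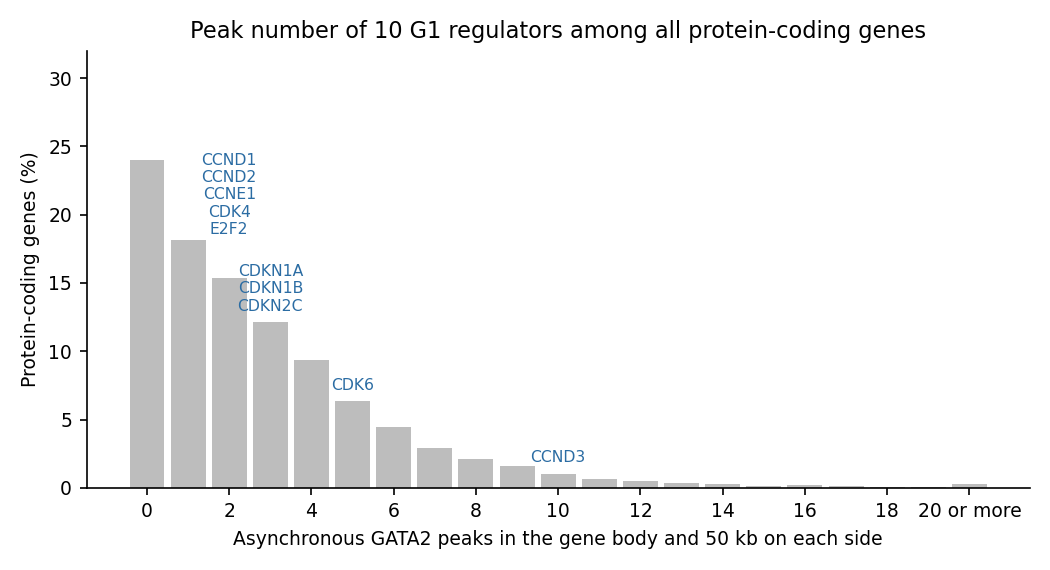
Grey bars give the percentage of 20033 protein-coding genes (vertical axis) by their number of asynchronous peaks in the gene body and 50 kb on each side (horizontal axis), and the names mark the number for each of the 10 genes. CCND3, with 10 peaks, is in the tail of the distribution and the 5 genes with 2 peaks are at its median.

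Mitotic peaks were found at 2 of the 10 genes (20%, 95% exact binomial interval 2.52% to 55.6%), and 11.7% of protein-coding genes had one in the same window. Of the 34 asynchronous peaks, 3 were bookmarked, or 8.82% (1.86% to 23.7%), and 5.04% of all asynchronous peaks were. Both background shares lie within the intervals, so at this number of genes and peaks neither share could be told from its background. Intervals cover counting error only. They treat genes and peaks as independent draws, although the genes were chosen and 10 of the 34 peaks were at CCND3, so they are descriptive. At CCND3 2 of 10 peaks were bookmarked, at E2F2 1 of 2, and at the other 8 genes 0 of 22. The nearest mitotic peak outside the windows was 69383 bp from the body of CCNE1, from 29893696 to 29894013 and nearest to the start site of URI1. It was 198057 bp away for CDKN1A and between 494874 bp (CDKN1B) and 2783209 bp (CDKN2C) for the other 6 genes without one.

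Among the D-type cyclins, CCND3 (ENSG00000112576, minus strand of chromosome 6, 41934934 to 42050357) was the most occupied, with 8 of its 10 peaks in introns. GENCODE lists 18 start sites for the gene, and the canonical one at 41941808 lies far downstream of that of the longest coding transcript at 42050357, so most of the gene body belongs to intron 1 of long transcripts. From 41956922 to 42047309 that intron held 6 peaks, with 1 bookmarked. The bookmarked peak of intron 1, from 42017039 to 42017736, was 698 bp wide, 30798 bp from the nearest CCND3 start site, and its mitotic counterpart of 309 bp, from 42017162 to 42017470, covered 44.3% of it. The widest peak at any of the 10 genes was also in this intron, from 41956922 to 41957698, with 777 bp and 4 GATA matches, and it was not bookmarked. The second bookmarked peak, from 41936133 to 41936554, lay in the last intron (intron 4 of the canonical transcript) near the 3′ end. It was 422 bp wide, and its mitotic peak of 150 bp, from 41936356 to 41936505, covered 35.5% of it. That mitotic peak was among the narrowest of the list, of which 98.7% were as wide or wider. In intron 2 of the canonical transcript, a 324 bp peak with 1 GATA match, an E-box and a RUNX core had no mitotic counterpart. The closest pair of CCND3 peaks, 552 and 377 bp wide, had midpoints 2163.5 bp apart, and neither was bookmarked. The wider of them held 3 E-boxes and an ETS match, the most E-boxes of any of the 34 peaks. The 2 peaks outside the gene, 209 bp wide and 28682 bp downstream within MED20 and 645 bp wide and 41640 bp upstream within C6orf132, were not bookmarked either.

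CCND2 (ENSG00000118971, plus strand of chromosome 12, 4269771 to 4305353) had a wide peak next to its start and 0 mitotic peaks. This peak, from 4272352 to 4272991, was 640 bp wide, 162 bp from the nearest CCND2 start site and 67.8% GC. It held 0 GATA matches and 1 AP-1 site, which is shown with its surroundings because it was the single match in the peak to any of the motifs searched. Its other peak, of 516 bp, spanned a start site of TIGAR, a neighbouring gene.
CCND2 start region with the AP-1 site in capitals, chr12:4272552-4272631: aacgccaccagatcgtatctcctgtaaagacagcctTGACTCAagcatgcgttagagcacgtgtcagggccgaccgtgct

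CCND1 (ENSG00000110092, plus strand of chromosome 11, 69641156 to 69654474) had 2 narrow peaks, both outside the gene. One of them, 308 bp wide, lay within the annotated gene FGF19, 46012 bp beyond the 3′ end of CCND1. The other, 221 bp wide and 15786 bp upstream, held a GATA:E-box composite, meaning CTG, any 8 bases and GATAA on either strand, the arrangement bound by GATA factors together with TAL1. Composites were found in 2 of the 34 peaks (5.88%, 0.721% to 19.7%) and in 8.55% of all asynchronous peaks. In the sequence of the CCND1 peak, capitals mark the composite, read on the minus strand, and a further GATA match.
CCND1 upstream, chr11:69625149-69625369: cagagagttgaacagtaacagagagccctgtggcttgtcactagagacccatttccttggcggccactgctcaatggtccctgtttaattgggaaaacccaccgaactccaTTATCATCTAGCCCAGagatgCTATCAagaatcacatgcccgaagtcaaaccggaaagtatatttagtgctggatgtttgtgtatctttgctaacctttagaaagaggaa

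The kinase genes differed in their peaks. CDK6 (ENSG00000105810, minus strand of chromosome 7, 92604921 to 92836573) had 5 peaks, in introns 2, 4 and 5, 49430 bp upstream and 44067 bp downstream of the gene. All 5 held GATA matches. The upstream peak, of 537 bp, was the widest and held the second composite, and the intron 2 peak held 6 GATA matches at a GC content of 25%. The nearest mitotic peak was 1304656 bp from the gene body. CDK4 (ENSG00000135446, minus strand of chromosome 12, 57747727 to 57756013) had the 2 narrowest peaks of the 34, with 185 and 176 bp, and neither held a GATA match, although each held the shorter string GATAA. The first lay 547 bp beyond the 3′ end of CDK4, 328 bp from a start site of TSPAN31, and the second, 26715 bp upstream of CDK4, lay on the start site of TSFM. No peak had CDK4 as the gene with the nearest start site.

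At CCNE1 (ENSG00000105173, plus strand of chromosome 19, 29811991 to 29824312) both peaks lay far outside the gene, 44672 bp upstream and 46806 bp downstream. The downstream peak was the wider with 353 bp and held 3 GATA matches and an ETS match. The upstream peak was 191 bp wide and held 13 GATA matches at 29.8% GC, the largest number of the 34 peaks. It contains 12 GATA units in an uninterrupted tandem run on the plus strand and is shown for that reason, and it was not bookmarked. In all, 1.35% of asynchronous peaks held 10 or more matches. Matches were counted without overlap, so a tandem run gives fewer matches than units.
CCNE1 upstream repeat, chr19:29767128-29767318: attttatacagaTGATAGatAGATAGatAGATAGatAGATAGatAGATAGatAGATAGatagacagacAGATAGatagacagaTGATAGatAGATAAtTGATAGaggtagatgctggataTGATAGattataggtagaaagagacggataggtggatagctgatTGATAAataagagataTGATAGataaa

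Among the inhibitors, CDKN1A (ENSG00000124762, plus strand of chromosome 6, 36676460 to 36687337) had 3 peaks outside the gene, of which 2 are described. The widest, with 260 bp, lay 26187 bp upstream and held 0 GATA matches, and one of 213 bp with 3 matches lay 4797 bp beyond the gene. CDKN1B (ENSG00000111276, plus strand of chromosome 12, 12685498 to 12722369) had a peak of 253 bp with 5 matches inside the annotated gene but upstream of its canonical start site, with its midpoint 8811 bp from the nearest CDKN1B start site. Its other peaks, of 230 and 307 bp, had start sites of GPR19 and APOLD1 nearest to them. CDKN2C (ENSG00000123080, plus strand of chromosome 1, 50960745 to 50974634) had peaks of 387 and 200 bp upstream, within the neighbouring gene FAF1, and one of 433 bp downstream, which was the widest at any inhibitor gene. Of the 9 peaks at the inhibitor genes, 0 were bookmarked, and 5.04% of all asynchronous peaks were.

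E2F2 (ENSG00000007968, minus strand of chromosome 1, 23506438 to 23531233) had its bookmarked site upstream of the gene, not in an intron as at CCND3. Its bookmarked peak, from 23539853 to 23540278, was 426 bp wide and 8619 bp upstream of the gene. The mitotic peak of 365 bp, from 23539902 to 23540266, covered 85.7% of it, against 35.5% and 44.3% at CCND3. It was therefore the 1 peak of the 34 that stayed bookmarked when both peaks had to share at least 50% of their width. The share of all asynchronous peaks under that rule was not computed. Where the midpoints had to lie within 200 bp instead, 3 of the 34 were bookmarked, as in the main count. For this rule, too, the share of all asynchronous peaks was not computed. A second E2F2 peak, 195 bp wide and 551 bp upstream of the gene, had a single GATA match and no mitotic counterpart. It is shown for comparison with the bookmarked sequence above, which also held a single match.
E2F2 start-proximal, asynchronous only, chr1:23531785-23531979: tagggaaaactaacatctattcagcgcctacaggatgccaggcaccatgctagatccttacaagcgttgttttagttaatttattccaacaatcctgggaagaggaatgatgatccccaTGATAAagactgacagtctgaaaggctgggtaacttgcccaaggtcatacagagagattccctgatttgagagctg

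Width is the one measure of a peak that the lists allow. The 34 asynchronous peaks were 176 to 777 bp wide with a median of 332 bp, and all asynchronous peaks had a median of 378 bp. The 3 bookmarked peaks had a median of 426 bp and the 31 others of 308 bp. Of the 4 peaks of 640 bp or more, 1 at CCND2 and 3 at CCND3, 1 was bookmarked. Of the 12 peaks at or above 378 bp, 3 were bookmarked, or 25% (5.49% to 57.2%), and 9.65% of all asynchronous peaks of that width were. Within those 12, the bookmarked peaks were not the wider ones, since the difference in medians, bookmarked minus the other 9, was -126 bp. Set beside all 1600 bookmarked peaks of the list, whose median was 674 bp, the sites of 422 and 426 bp were narrow, with 93.2% and 92.6% as wide or wider, and the site of 698 bp was ordinary, with 46.2%.

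**Figure D3:**
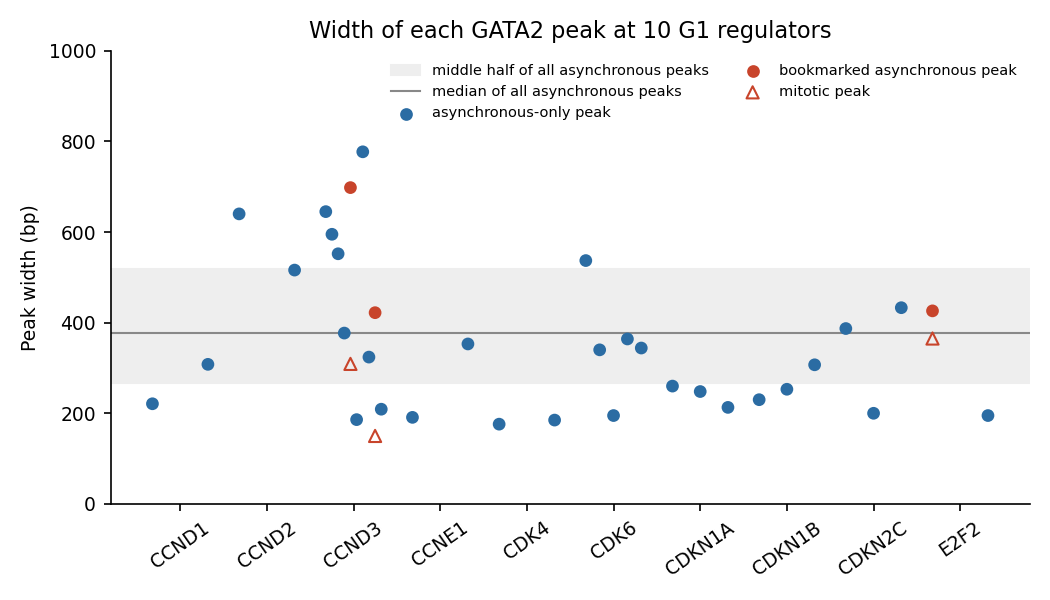
The width in bp of each peak (vertical axis) is plotted by gene, with asynchronous-only peaks in blue, bookmarked asynchronous peaks in red and mitotic peaks as open triangles. The grey band and line give the quartiles (267 and 518 bp) and the median (378 bp) of all asynchronous peaks, and 5 of the 6 widest points belong to CCND3.

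A GATA match was found in 30 of the 34 peaks (88.2%, 72.5% to 96.7%), in 93.0% of all asynchronous peaks and in 41.2% of the 68 flanking sequences of the same width 5 kb away. The 4 peaks without one were both peaks of CDK4, the start-region peak of CCND2 and the upstream 260 bp peak of CDKN1A. Per kb, the 34 peaks held 7.07 matches and their flanks 1.54, beside 5.995 in all asynchronous peaks. Without the 2 peaks that held 10 or more matches, the other 32 held 5.39 per kb. The E-box was present in 6 of the 34 peaks (17.6%), in 20.6% of flanks and in 24.1% of all asynchronous peaks, and 5 of these 6 peaks were at CCND3. RUNX, ETS (AGGAAGT) and AP-1 (TGACTCA or TGAGTCA) matches were present in 4 peaks each, or 11.8% (3.30% to 27.4%), with 13.6%, 14.9% and 13.0% in all asynchronous peaks and 8.82%, 8.82% and 7.35% in the flanks. These shares of the whole list lie within the interval of the 34 peaks.

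The bookmarked peaks had a GC content of 55.0% and 57.1% at CCND3 and 57.0% at E2F2, and the median of the other 31 was 44.9%. Across the list, bookmarked and asynchronous-only peaks had medians of 44.3% and 44.1%, and 6.44% to 9.13% of all bookmarked peaks had a GC content as high as these 3. With 3 peaks this is a description of these sites.

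**Figure D4:**
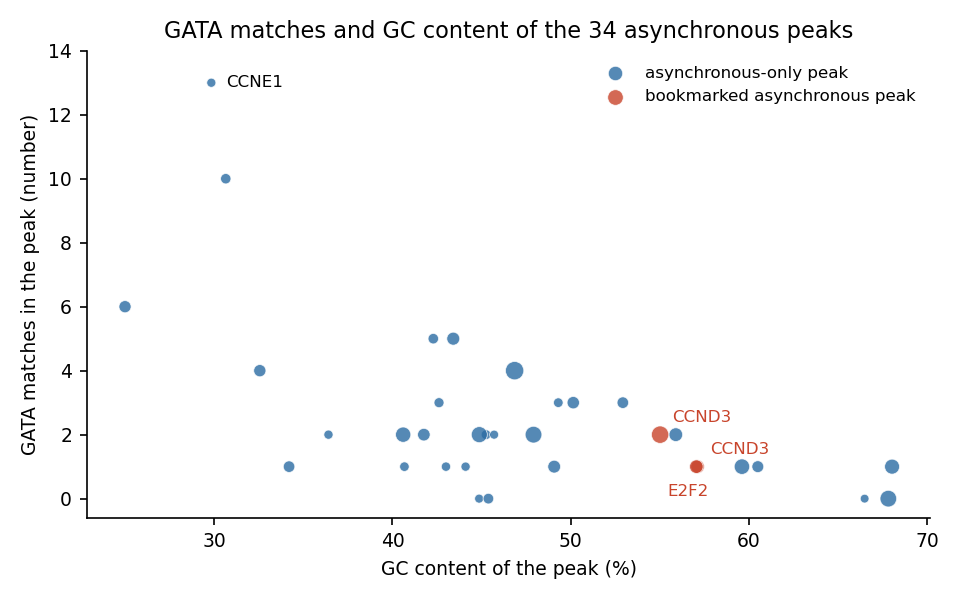
The number of GATA matches in each of the 34 asynchronous peaks (vertical axis) is plotted against its GC content in percent (horizontal axis), with point area in proportion to width. The repeat at CCNE1 stands at 13 matches and 29.8% GC, and the 3 bookmarked peaks (red) at 1 or 2 matches and 55.0% to 57.1% GC.

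Most peaks were distant from start sites. Of the 34, 8 had their midpoint within 3 kb of the start site of any protein-coding gene (23.5%, 10.7% to 41.2%), and 20.5% of all asynchronous peaks did. The midpoint lay upstream of the gene in 12 peaks, downstream in 9 and within it in 13. The gene with the nearest start site was the G1 regulator itself for 22 peaks and a neighbour for 12. RefSeq start windows (GRCh38.p14, 250 bases before to 50 after a start) were matched for 8 of the 10 genes, not for CCND1 and CCND2. None of the 13 windows of these 8 genes overlapped a peak (interval 0% to 24.7%), and 3.45% of all such windows did, a share within that interval. The windows are short, and a CCND3 window, from 41939156 to 41939455, ended just before the peak that starts at 41939469. The start-proximal E2F2 peak, 552 bp from the nearest start site, also lay outside its window. CCND2, whose start-region peak lay 162 bp from a start site, was among the genes left out. A GATA match was present in 1 of the 13 windows, at CDK4, and in 24.97% of all windows.

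The rest of the pathway was covered by a list of 27 further G1/S genes. Asynchronous peaks were found at 20 of them (74.1%) and mitotic peaks at 4 (14.8%, 4.19% to 33.7%), close to the shares of 76.0% and 11.7% for all protein-coding genes. The 4 were RB1, which encodes the retinoblastoma protein, E2F1, the E2F partner gene TFDP2, and SKP2, which encodes a ubiquitin ligase subunit that targets p27. TFDP2 had 2 mitotic peaks in its introns 2 and 3, of 351 and 209 bp. The mitotic peak of E2F1 lay 2598 bp upstream of the gene, that of RB1 26630 bp beyond its 3′ end and that of SKP2 40471 bp upstream, nearest to LMBRD2. All 5 overlapped asynchronous peaks, as did 97.45% of all mitotic peaks. The most asynchronous peaks were found at RB1 with 12, FBXW7 with 11 and TFDP2 with 10. The 7 genes without a peak were CCNE2, CCNA1, CDKN1C, CDKN2A, CDKN2B, E2F4 and E2F7. CDKN2A and CDKN2B lie in a region of chromosome 9 that is known to be deleted in K562 cells. Of the 90 asynchronous peaks counted at the 27 genes, 5 were bookmarked, or 5.56% (1.83% to 12.5%).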

How the data were processed

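Per the submitters' processing notes and the methods of the study, reads were aligned by the authors to hg38 with BWA 0.7.12, uniquely mapped reads were kept, peaks were called with MACS2 2.1.0 and Genrich 0.6.1, and peaks on the ENCODE blacklist were removed. How the 2 programs and the inputs were combined, and the thresholds, are not given in the sources used here. The deposited values are peak positions in bp, with no score. The 2 input libraries were not analysed here.

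Positions are printed with the first base as 1. Peaks were counted over each gene body with 50 kb on each side. Motifs were matched as strings on both strands, without overlap. Shares carry 95% exact binomial intervals. The lists hold no expression values, so the markers of the cell line were not checked. All 10 genes, each bookmarked peak, the widest other peak at each gene, some genes that hold a described peak or have the nearest start site, and of the 27 further genes those with a mitotic peak or the most peaks are named; the 7 without a peak, and further peaks, were chosen after their values were seen. The 10 genes and the list of 27 were chosen with earlier results of these data known. The alternatives changed the window, the assignment, the overlap rule, the peaks used, the GATA string, the interval searched, the promoter distance and the background genes. The steps were tested on simulated data. Sequences were read with pysam 0.24.0, intervals came from scipy 1.17.1, tables were handled with pandas 2.3.3 and numpy 2.4.6, and figures were drawn with matplotlib 3.10.9 under Python 3.11.15. Sequence is shown for 7 peaks, and some other peak sequences and what rests on them are not reported here.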

Additional observations from a re-analysis of the deposited data

How the results depend on the processing

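No paired analysis was possible because each condition has 1 library. Of 48 values recomputed under the alternatives, 32 stayed close to the main value, within 1.5 times it or, for shares, within its interval, 15 moved beyond that and 1 changed sign. The number of asynchronous peaks at the 10 genes was 34, and it was 13 in gene bodies alone, 17 with 10 kb and 54 with 100 kb on each side, and 12 with peaks at or above the median width. In gene bodies alone, 1 of the 10 genes had a mitotic peak. The bookmarked share, 8.82%, was 25% in the same wider peaks, 15.4% in gene bodies alone, 17.6% with 10 kb and 2.94%, 1 of 34, where both peaks had to share 50% of their width. It stayed at 8.82%, 3 of 34, with midpoints within 200 bp. For these 2 overlap rules the share of all asynchronous peaks was not computed, so the shares have no background. The median width of bookmarked peaks minus that of the others was 118 bp, and it was 196 bp in gene bodies alone, 239 bp with 100 kb and -126 bp in the wider peaks, a setting that drops the narrower ones, all of them asynchronous only. GATA matches per kb, 7.07, were 4.31 for GATAA alone and 11.2 in the central 200 bp. Of the 27 further genes 20 had asynchronous peaks, and 8 did in gene bodies and 10 with 10 kb. Mitotic peaks were found at 4 of them, and at 1, 2 and 8 with 0, 10 and 100 kb. The share of all protein-coding genes was computed for 50 kb only, so the counts of genes at other windows have no background. With 100 kb, CCNE1 gained a mitotic peak. The unknown depth limits every absence of a peak.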
